A study of Mus musculus with 12 samples.

Results

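The galectin genes Lgals1 and Lgals7 were followed in livers of young mice that had lost the histone deacetylase gene Hdac3 and in control livers. They were identified as the probes whose accession, with the version dropped, is a RefSeq transcript of either gene. Lgals1 was read by probe 811401 (NM_008495.1) and Lgals7 by probe 465223 (NM_008496.3), 1 probe for each gene, among 305 genes that could be given a RefSeq symbol and 33012 probes in all. Both genes had been chosen by their higher signal in Hdac3-null than in control liver at postnatal day 28 (P28), so that difference is described here and not tested.

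RNA from 5 livers of C57B/6 mice was combined into each pool, and the pools were read on 12 single-colour ABI1700 arrays as chemiluminescence from digoxigenin-labelled cRNA. The groups were control and Hdac3-null liver at 17 days (P17) and at 28 days (P28), each with 2 pools and 3 arrays, since only the first pool of a group was run on a pair of arrays, from different lots of chips. The first control pools came from Hdac3 wild-type mice and the second P28 control pool from wild-type or heterozygous mice, all carrying Albumin-Cre, a Cre recombinase driven by the promoter of the hepatocyte gene albumin. The second P17 control pool has no genotype note of its own, and the design gives wild-type or heterozygous for the controls as a whole. The labels of the Hdac3-null pools name no Cre driver. Each pool averages 5 animals, and whole liver also holds endothelial, stellate, biliary and blood cells. In such bulk RNA, more cells of a type and more RNA per cell cannot be told apart.

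Galectins are small lectins that bind beta-galactoside sugars on glycoproteins and glycolipids, both inside cells and, after secretion by a route that needs no signal peptide, outside them. Galectin-1, the product of Lgals1, forms non-covalent dimers, cross-links glycans on cell surfaces and is known for dampening T-cell responses and for its abundance in mesenchymal cells. Galectin-7, the product of Lgals7, is best known from stratified epithelia such as epidermis and, in human cells, as a gene induced by p53. Hdac3 is the deacetylase of the NCoR and SMRT corepressor complexes, which keep the targets of many nuclear receptors silent.

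Lgals1 lies on mouse chromosome 15 and Lgals7 on chromosome 7, and both are protein-coding. The promoter window of Lgals7 is shown because the age differences of this gene had opposite signs in control and in null liver. It spans 250 bases before and 50 after the gene start at chr7:28864136-28864435 of GRCm38.p6, plus strand, as given by RefSeq, with the match to the GC box GGGCGG in capitals.
Lgals7: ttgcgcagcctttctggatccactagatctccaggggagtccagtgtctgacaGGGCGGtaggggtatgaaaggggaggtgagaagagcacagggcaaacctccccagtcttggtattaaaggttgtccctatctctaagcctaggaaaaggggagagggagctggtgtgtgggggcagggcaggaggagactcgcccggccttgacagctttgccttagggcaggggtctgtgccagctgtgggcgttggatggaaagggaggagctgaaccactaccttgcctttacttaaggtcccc
The window is 57.7% G or C, against a median of 52.7% over all 32851 promoter windows of this length. Of 5 motifs searched on both strands, only the GC box was found, once, starting at position -197 from the gene start, and 35.7% of all windows hold it. The TATA box TATAAA was not among these letters and is held by 13.6% of all windows. Neither was CCAAT, which 37.4% hold, nor the AP-1 motif TGANTCA, which 7.8% hold, nor the E-box CACGTG, which 7.2% hold. No motif overlapped another.

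The deposited intensities fell into 3 sets of 4 arrays with 1 common distribution each: the P17 first pools (medians of 405.04 to 411.02), the P28 first pools (489.76 to 491.8) and all second pools (854.46 to 862.68). A null-against-control difference of the same pool number thus lies within 1 set, whereas the age difference of the first pools crosses sets. For the second pool of P28 Hdac3-null liver, the scanner export filed with it repeats that of the P28 first pools, although its column in the value table has the distribution of the second pools. The P28 and age differences of the 2 galectins, and the P28 differences of Lgals2, Crip1, Lst1, Ear1 and Wfdc2, are also given without this pool; the shares of probes with a given sign in every pool include it. The level of the Hdac3 transcript itself was not analysed here. Of the hepatocyte list only G6pc, which encodes glucose-6-phosphatase, was measured by name, and it stood between percentiles 95.3 and 99.4 of the probes on every array. Values below are log2 of quantile-normalized intensity, and pool values of a first pool are means of its duplicate arrays.

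Lgals1 was high in every library and higher in all Hdac3-null pools than in any control pool. The share of all probes with that separation was not counted, and its P28 part goes with the choice of the gene. The deposited intensities in P17 control liver were 7593.8 and 5478 in the duplicate arrays of the first pool and 11029.7 in the second pool. P17 Hdac3-null liver gave 16756.7 and 12536.5 in the first pool and 44905.4 in the second. In P28 control liver they were 4576.3, 4455.3 and 11836.8, and in P28 Hdac3-null liver 29615.3, 28624.4 and 64918.5, in the same order. Within each of the 3 sets of arrays, every null reading lay above every control reading of the same age, and the second pools read higher throughout, in the set with the highest median. The Lgals1 probe stood between percentiles 82.3 and 94.6 of the probes of its array.

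After normalization the levels of Lgals1 were 12.92 and 12.88 in the first and second pools of P17 control liver and 12.66 and 12.98 in those of P28 control liver. The control levels of the 2 ages overlapped. The levels were 14.10 and 14.91 in P17 Hdac3-null liver and 15.31 and 15.43 in P28 Hdac3-null liver. These did not overlap with each other or with the controls, a pattern whose share over all probes was not counted. The group means were thus lowest in P28 control liver (12.82 ± 0.22, SD, n = 2 pools) and in P17 control liver (12.90 ± 0.03), which did not differ beyond their spread, then came P17 null (14.51 ± 0.57) and P28 null liver (15.37 ± 0.08).

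Null and control readings of Lgals7 lay close together at P17 and further apart at P28. Its deposited intensities in P17 control liver were 2537.9 and 2542.5 in the first pool and 3908.8 in the second, against 2841.3, 2911.7 and 5328.7 in P17 Hdac3-null liver. In P28 control liver they were 1646.9, 1298.4 and 2042.3, and in P28 Hdac3-null liver 5059.9, 4994.2 and 7553.8. Among the second pools, which share 1 set of arrays, P28 control liver thus read lowest and P28 null liver highest. The Lgals7 probe stood between percentile 65.4, in the second P28 control pool, and percentile 83.4, in the first P28 null pool.

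Normalized Lgals7 levels were 11.56 and 11.38 in the P17 control pools and 11.74 and 11.84 in the P17 null pools. They were 11.02 and 10.43 in the P28 control pools and 12.81 and 12.32 in the P28 null pools. No group's pools overlapped with those of another. How many of all probes separate in this way was not counted, and the P28 separation goes with the choice of the gene. The order from low to high was P28 control (10.72 ± 0.42, SD, n = 2 pools), P17 control (11.47 ± 0.13), P17 null (11.79 ± 0.07) and P28 null liver (12.57 ± 0.35), and the step from P17 control to P17 null was the smallest and below its standard error.

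**Figure D1:**
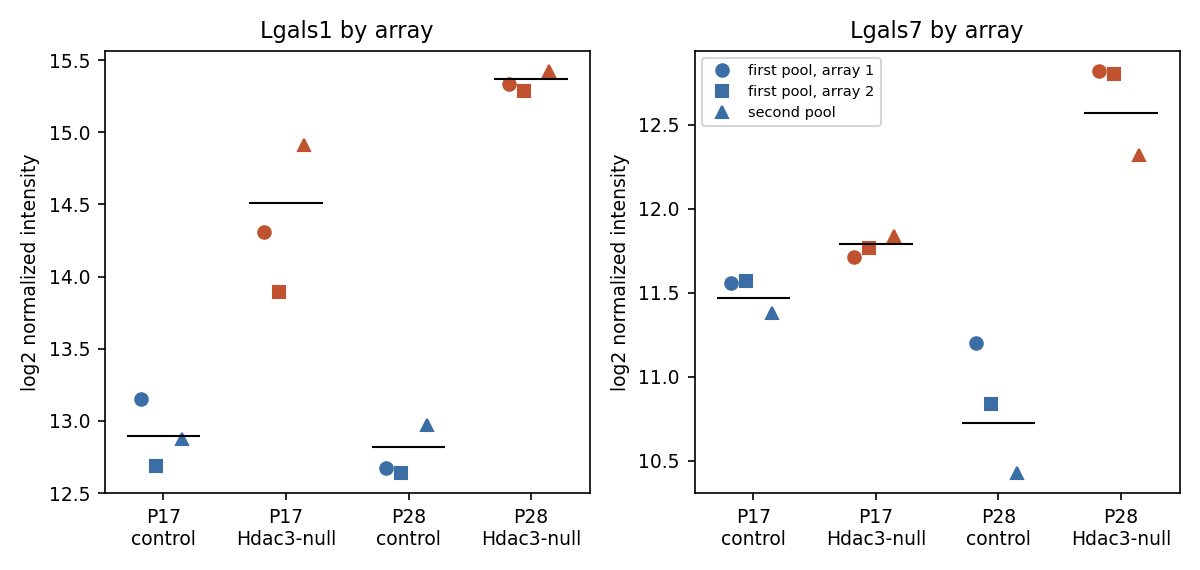
Log2 normalized intensity of Lgals1 (left) and Lgals7 (right) on each of the 12 arrays by group; circles and squares are the duplicate arrays of the first pool, triangles the second pool, and black lines the mean of the 2 pools. Lgals1 control means sit at 12.90 and 12.82 at both ages, while Lgals7 is at 10.72 in P28 control liver and 12.57 in P28 null liver.

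At P17, the age whose pools were not used to pick the genes, the signal of Lgals1 was 3.05 times as high in Hdac3-null as in control liver (log2 difference 1.61, SE 0.38, n = 2 pools per group). The difference was 1.18 in the first pools and 2.03 in the second, and it did not pass the test (limma, adjusted p = 0.45 over 33010 probes). Lgals7 differed by 0.32 (SE 0.37), with 0.18 in the first pools and 0.46 in the second (limma, adjusted p = 1). At this age 0.0454% of all probes were called at an adjusted p under 0.05 (15 probes, and 5 with the replicate block by pool number), and neither galectin was among them. For both genes both null pools lay above both control pools, which 16.7% of all probes also showed. Across genes, 0.882% of probes had a higher P17 difference than Lgals1 and 23.8% a higher one than Lgals7, and among the 305 genes with a symbol Lgals1 ranked 3 and Lgals7 ranked 84.

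At P28 the difference of Lgals1 was 2.55 (SE 0.38), or 5.86-fold, with 2.65 in the first pools and 2.45 in the second. That of Lgals7 was 1.84 (SE 0.37), or 3.59-fold, with 1.79 and 1.90. These values chose the genes and carry no test. Without the second P28 null pool they were 2.49 and 2.09. All 4 differences of each gene, by pool and age, were above 0, as for 10.6% of all probes.

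**Figure D2:**
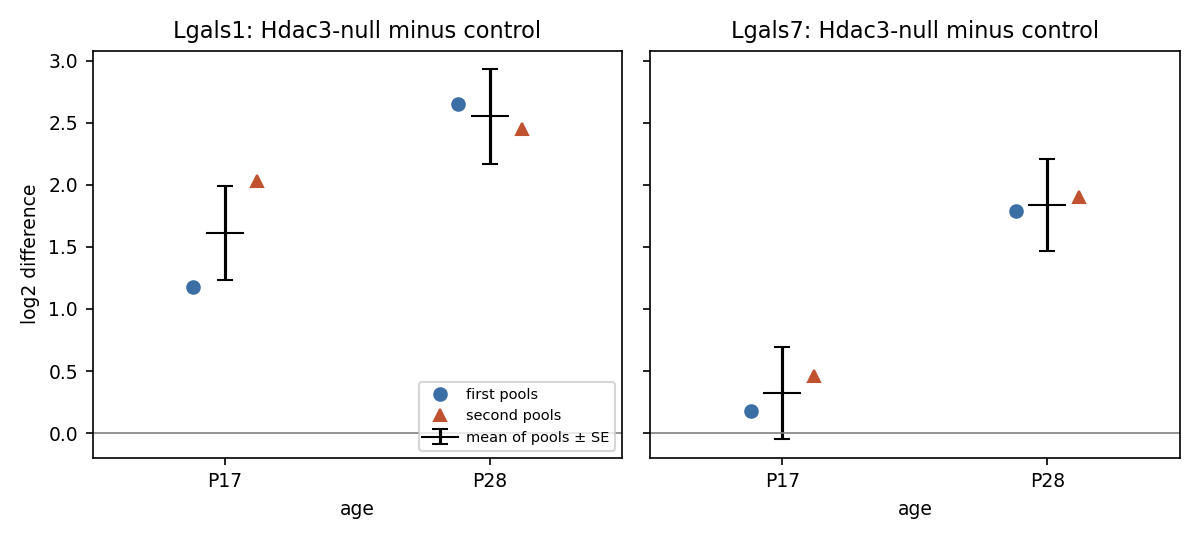
Log2 difference between Hdac3-null and control liver for Lgals1 (left) and Lgals7 (right) at P17 and P28; circles are first pools, triangles second pools, and bars the mean ± SE of limma (n = 2 pools per group). The Lgals7 difference is 0.32 at P17 and 1.84 at P28, the Lgals1 difference 1.61 and 2.55.

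Set side by side, the ages gave different values for the 2 genes, a contrast that was not tested. In control liver Lgals1 differed by -0.08 between P28 and P17 (SE 0.38), with -0.26 in the first pools and 0.10 in the second, less than the SE. In null liver it differed by 0.86 (SE 0.38), with 1.21 and 0.51. Lgals7 was lower at P28 than at P17 in both control pools, by -0.54 and -0.95 (mean -0.75, SE 0.37), and higher in both null pools, by 1.07 and 0.49 (mean 0.78, SE 0.37). Of all probes 5.84% showed that last pattern. The second values of each pair lie within 1 set of arrays. The null-against-control difference was larger at P28 than at P17 by 0.94 for Lgals1 (SE 0.54) and by 1.53 for Lgals7 (SE 0.53). Because all of these age values use the P28 pools on which the genes were picked, they too are descriptions. Without the second P28 null pool the age difference in null liver was 0.80 for Lgals1 and 1.02 for Lgals7, and the null-against-control difference was larger at P28 by 0.88 and 1.77.

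Of the 12 genes of the galectin list, Lgals2 was the only other one measured by name. Lgals2 encodes galectin-2, a dimeric galectin best known from the gut. It read low, from percentile 2.5 to 47.2 of its array, and its group means were 7.93 ± 0.30 in P17 control, 8.46 ± 0.35 in P17 null, 8.47 ± 0.30 in P28 control and 8.31 ± 1.02 in P28 null liver (SD, n = 2 pools). The difference was 0.52 at P17 (SE 0.52, adjusted p = 1) and -0.16 at P28 (SE 0.52, adjusted p = 0.98; limma over all probes). Thus 0 of 1 other galectin was called at either age, where 0.397% of all probes were called at P28 (131, and 246 with the replicate block by pool number). The pools of Lgals2 overlapped between null and control liver at P28, and without the second P28 null pool the difference was -0.88 (SE 0.47, adjusted p = 0.71 in limma).

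**Figure D3:**
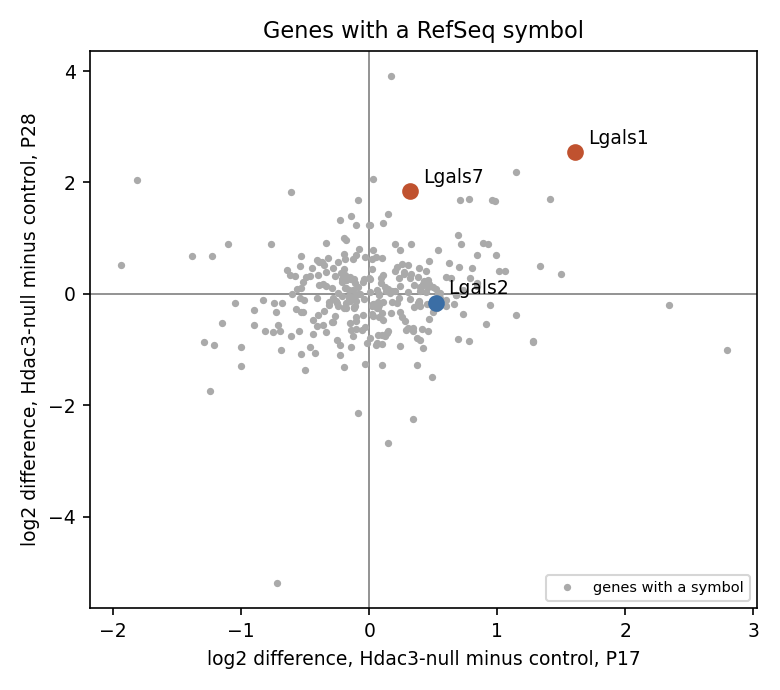
Log2 difference between Hdac3-null and control liver at P17 (horizontal) and P28 (vertical) for the 305 genes with a RefSeq symbol, each a point, with the 3 measured galectins marked. Lgals1 lies to the upper right at 1.61 and 2.55, Lgals7 above the centre at 0.32 and 1.84, and Lgals2 near the origin at 0.52 and -0.16.

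Lgals1 sits in a cluster of genes on chromosome 15, of which 6 within 500 kb were measured by name in the annotation of GRCm38.p6: Nol12, Pdxp, Sh3bp1, Gga1, Lgals2 and Cdc42ep1. None of the 6 was called at P17, where 0.0454% of all probes were called, or at P28, where 0.397% were. Nearest is Nol12, a nucleolar RNA-binding protein, whose difference was -0.34 at P17 (SE 0.52) and 0.39 at P28 (SE 0.64). At P28 the value table is empty for a second pool, and the difference between the first pools was -0.27, of opposite sign. Dim readings occurred for Nol12, at percentiles 2.5 to 54.3 of the arrays, and for Sh3bp1, at 11.4 to 71.9. Pdxp, the pyridoxal phosphatase, differed by -0.13 and -0.76 (SE 0.58 for each). Sh3bp1 had differences of -0.42 and -1.06 (SE 0.34 each; adjusted p = 1 at P17 and 0.34 at P28 in limma), below 0 in all 4 pool comparisons. Gga1, an adaptor of trans-Golgi sorting, differed by -0.53 and -1.07 (SE 0.44 for each, adjusted p = 1 and 0.50). Cdc42ep1, an effector of the GTPase Cdc42, was the only neighbour with values above 0 in all 4, at 0.33 and 0.90 (SE 0.46 for each, adjusted p = 1 and 0.62). All 4 differences were above 0 for 10.6% of all probes, and the share below 0 in all 4 was not counted. Over the alternative settings the P28 difference ran from -1.90 to -0.24 for Sh3bp1, from -1.45 to -0.07 for Pdxp, from -0.27 to 1.06 for Nol12 and from 0.39 to 1.40 for Cdc42ep1, and none of the 6 neighbours was called at either age under any of them. No gene measured by name lies within 500 kb of Lgals7. Genome annotation also holds a pseudogene of Lgals1, Lgals1-ps1, on chromosome 17; the probe sequences are not used here, so whether the Lgals1 probe reads it as well is not known.

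**Figure D4:**
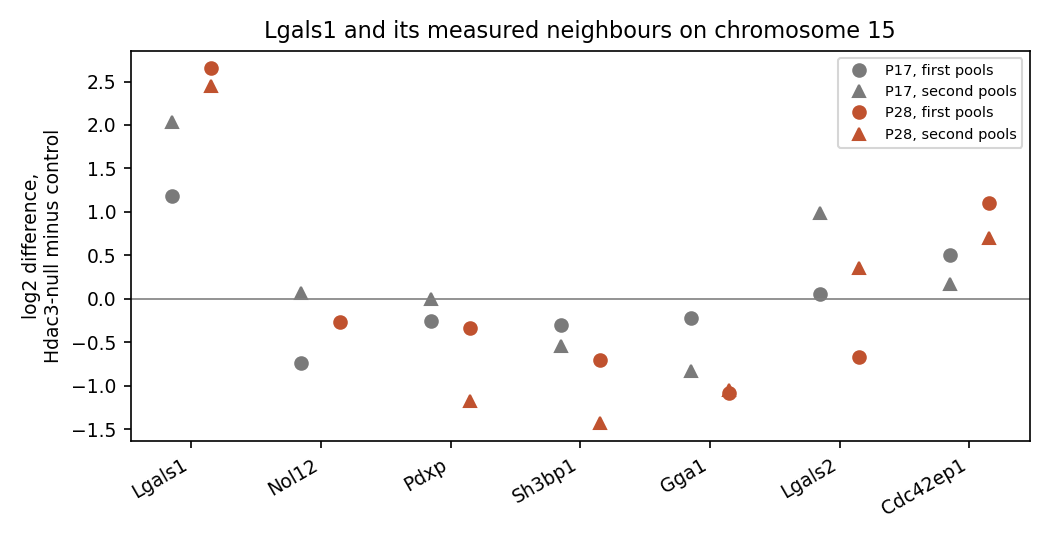
Log2 difference between Hdac3-null and control liver of Lgals1 and its 6 measured neighbours on chromosome 15, ordered by distance; grey is P17, orange P28, circles first pools and triangles second pools. Lgals1 is at 2.65 and 2.45 at P28, and Sh3bp1 and Gga1 lie below 0 in every comparison, a pattern whose share over all probes was not counted.

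Among 304 other genes with a symbol, the level of Lgals1 over the 8 pools was most like that of Aldh3a2, the fatty aldehyde dehydrogenase (Pearson r = 0.97). Then came Tmem139 (0.94), Mpdu1, which the endoplasmic reticulum needs to use dolichol-linked mannose (0.93), Bcl2a1b of the anti-apoptotic Bcl2 family (0.91) and the LIM-domain gene Crip1 (0.86). For Lgals7 they were Bcl2a1b (0.88), the epithelial secreted protein gene Wfdc2 (0.85), Lgals1 itself (0.84), the signalling adaptor Gab2 (0.84) and Aldh3a2 (0.82). These values are descriptions over pools that share the genotype difference and the sets of arrays. Because the genes were picked by likeness over the same 8 pools, their differences and p-values below are descriptions too, not fresh tests. The difference of Aldh3a2 was 1.41 at P17 and 1.70 at P28 (SE 0.33; limma, adjusted p = 0.42 and 0.11), and that of Bcl2a1b 1.15 and 2.18 (SE 0.53 for each, adjusted p = 1 and 0.18). Crip1 differed by 0.69 and 1.05 (SE 0.43), and Mpdu1 by 0.62 and 0.56 (SE 0.33), so that the likeness to Lgals1 covers differences of unequal size. Without the second P28 null pool the P28 difference of Crip1 was 0.55 (SE 0.43). Gab2 stood at or under percentile 41.8 on every array, and Tmem139 between percentiles 14.7 and 67.2.

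Markers of the cells that could carry galectins were mostly without a symbol. Of 138 genes on 13 lists 9 were measured by name, and 7 lists had none, namely those for stellate cells and fibroblasts, lymphocytes, endothelium, stratified epithelium, p53 targets, galectin ligands and the Hdac3 complex. Lst1, a leukocyte transcript and the only measured macrophage marker, had differences of -0.10 at P17 and 1.23 at P28 (SE 0.33; limma, adjusted p = 1 and 0.23). Ear1, an eosinophil-associated ribonuclease, differed by 0.03 and 2.06 (SE 0.60, adjusted p = 1 and 0.28). P28 minus P17 for Ear1 was -1.95 in control liver (-2.61 in the first pools, -1.29 in the second) and 0.08 in null liver. Of the biliary and progenitor list, Wfdc2 differed by 3.91 at P28 (SE 0.58, adjusted p = 0.049 in limma) and by 0.17 at P17. For Krt23 the P17 difference was -1.21 and the P28 difference -0.91 (SE 0.61). The erythroid marker Hba-a1 had differences of 0.12 and 0.13 (SE 0.34). For G6pc the P17 difference was -1.10 and the P28 difference 0.89 (SE 0.35; limma, adjusted p = 0.84 and 0.47). Without the second P28 null pool the P28 difference was 1.20 for Lst1, 1.59 for Ear1 and 4.18 for Wfdc2 (adjusted p = 0.21 for the last in limma). The part of these genes in the galectin values was not tested. The lists were drawn up with earlier results of these data known. The P28 p-values of listed genes are therefore descriptions and not fresh tests. Of the alternatives, only the low-value offset, the block by pool number, trended robust spread and the filter on dim probes kept the call of Wfdc2. It did not survive single duplicates, the P28 pools alone, the omission of any pool, a block for the set of arrays, the deposited intensities or 75th percentile scaling.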

How the data were processed

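Intensity values were taken from the authors' value table, in which they are deposited on a linear scale for 33012 probes and 12 arrays, each column named by its sample; the sources used here do not give the software behind them, and 2867 of 396144 cells are empty. The 12 scanner files, by their whole contents copies of 3 exports, gave only the accession of each probe. Their 52 columns of per-array values carry no sample name and were not used, so no signal-to-noise score was applied. Accessions, without version, were matched to RefSeq transcripts of GRCm38.p6: 311 probes and 305 genes received 1 symbol.

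The 12 arrays were quantile-normalized, intensities below the 5th percentile (174.7) were set to it, and log2 values were averaged over the arrays of a pool. limma 3.58.1 (lmFit, eBayes) in R 4.3.3 fitted 4 groups over 8 pools (4 residual degrees of freedom, no covariate), and p-values were adjusted by Benjamini-Hochberg over 33010 probes. They reflect how pools of 5 mice, and the sets of arrays they fell in, differ. The sets were inferred from the distributions of the intensities, and no label names them. The fit was tested on simulated data. Members and lists were chosen with earlier results of these data known. Genes were named if they were members, on a list and measured, or among the 5 most like a member; the neighbours on the chromosome were added after the files were seen, by position. First-minus-second-pool deviations correlated between all 6 pairs of groups (r = 0.386 to 0.490), so a block by pool number was also fitted. The number of pools limits precision. Other alternatives were the normalization, the low-value offset, single duplicates, the set of arrays as a block, trended spread, a filter on dim probes, the pools of 1 age alone and leaving out each pool.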

Additional observations from a re-analysis of the deposited data

Results flagged for a closer look

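Lgals7 differed between the ages in opposite directions: P28 minus P17 was -0.75 in control liver, below 0 in both pools, and 0.78 in Hdac3-null liver, above 0 in both pools. Of all probes 5.84% showed this pattern, and the age difference of the first pools crosses sets of arrays. With the set of arrays as a block the values were -1.0 in control and 0.53 in null liver. The difference between the genotypes was not tested, since the gene was picked on the P28 pools.

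G6pc was lower in both null pools at P17 (-1.10) and higher in both at P28 (0.89). The difference between the ages was 1.99 (SE 0.49, adjusted p = 0.69 in limma over 33010 probes) and stayed short of the threshold. G6pc was flagged by these opposite signs in the same pools, so the value and its p-value are descriptions and not a fresh test. P28 minus P17 for G6pc was -2.74 in control liver (-2.49 in the first pools, -2.99 in the second) and -0.75 in null liver. How many of all probes change sign in this way was not counted.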

How the results depend on the processing

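The P17 differences kept their direction and stayed short of the threshold under all 18 alternatives: Lgals1 ranged from 1.20 to 2.01 (adjusted p 0.11 to 1 in limma) and Lgals7 from 0.23 to 0.41 (0.78 to 1). By design, the P17 difference itself could not move with either block, trended spread, the filter on dim probes or the P17 pools alone. Leaving out a P28 pool could not move it either, so its kept direction in these settings carries no weight. With the replicate block by pool number the P17 difference was 1.61 for Lgals1 (SE 0.32, adjusted p = 0.26) and 0.32 for Lgals7 (SE 0.30, adjusted p = 0.89), and the block changed neither call. Leaving out 1 pool, or 1 of the duplicate arrays, gave P28 differences of 2.39 to 2.71 for Lgals1 and 1.55 to 2.14 for Lgals7, control age differences of -0.24 to 0.08 for Lgals1 and -1.04 to -0.45 for Lgals7, and null age differences of 0.46 to 1.26 for Lgals1 and 0.53 to 1.02 for Lgals7. The age differences of Lgals1 in null liver were 0.46 without the first and 1.26 without the second P17 null pool. A group left with 1 pool is assumed to vary like the others.

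Counts of called probes, given for P17 and then P28, moved with the setting, from 15 and 131. They were 2 and 13 with the deposited intensities, 5 and 246 with the replicate block by pool number, 0 and 5 with the set of arrays as a block, 126 and 411 with trended robust spread, and 57 and 356 over the 15314 probes above the median of every array of a group. Only the pools of the age compared gave 0 and 0. The counts of 0 stand beside 2633 (set of arrays), 1789 and 2192 (pools of 1 age) probes with an unadjusted p under 0.05 in limma. Technical replicate 1 alone gave 10 and 67 and technical replicate 2 alone 9 and 83, with Lgals7 at 1.76 and 1.93 at P28; leaving out 1 pool gave 0 to 5 and 0 to 28. The cause was not tested. No reading of background was available per sample, so how far Lgals2, Gab2, Tmem139, Nol12 and Sh3bp1 stood above it is not known.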

Other observations

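The duplicate arrays of the first P17 pools differed for Lgals1 by 0.46 in control and 0.41 in null liver on the log2 scale, in both with array 1 the higher, against 0.04 and 0.05 at P28. Null minus control was 1.16 between the arrays numbered 1 and 1.21 between those numbered 2, and 2.03 in the second pools. For Lgals7 the duplicates differed by 0.01 and 0.06 at P17 and by 0.36 and 0.02 at P28. For Lgals7 the first and second pools of P28 control liver differed by 0.59, the widest gap between pools of this gene.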
